A study of Mus musculus with 15 samples.

Results

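The growth hormone receptor to STAT5 axis was described through 10 genes chosen by name: the receptor *Ghr*, its kinase *Jak2*, the transcription factors *Stat5a* and *Stat5b*, the feedback inhibitors *Socs2*, *Socs3* and *Cish*, the secreted products *Igf1* and *Igfals*, and the repressor *Bcl6*. These were 10 of the 55573 genes in the deposited count table, and all 10 passed the filter on low counts that left 17655 genes for testing. Liver RNA, depleted of ribosomal RNA, was sequenced from 15 mice aged 8 weeks, with 1 library per mouse. All mice carried the strain label B6N(Cg)-Esr1tm4.2Ksk/J. There were 3 wild-type females (FWT), 3 wild-type males (MWT), 5 females homozygous for an *Esr1* knockout (FKO) and 4 males homozygous for it (MKO); ESR1 is the estrogen receptor alpha. The deletion of exon 3 of *Esr1* is present in every cell of the body, the knockout mice of both sexes are infertile with raised testosterone, and the wild types were littermates from crosses of heterozygotes, so the loss of the receptor in the liver cannot be told apart from the changed hormones of these animals. The comparisons asked whether the axis differed between the sexes and whether that depended on ESR1.

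The pituitary releases growth hormone in sharp pulses in male rodents and more steadily in females. In hepatocytes the hormone binds GHR, the bound kinase JAK2 phosphorylates STAT5A and STAT5B, and the STAT5 dimers enter the nucleus and bind DNA. Their targets include the insulin-like growth factor IGF1, its carrier-complex subunit IGFALS, and CIS (the product of *Cish*) and SOCS2, which in turn damp the receptor. SOCS3 is an inhibitor of the same family that is also strongly induced by inflammatory cytokines through STAT3. BCL6 is a repressor that binds many of the same sites as STAT5, and its gene is itself repressed by growth hormone signalling in the liver. Pulses of STAT5 activity are changes in phosphorylation, which RNA counts do not measure.

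A palindrome of the letters TTCNNNGAA is the core of the DNA site that STAT5 dimers recognise, so the promoter windows of the members were read for it. RefSeq windows on GRCm38.p6, each 300 bases long (250 bases before a start site to 50 after), were found for 9 of the 10 members, with 15 windows in all; *Socs2* had none. The motif was present in 6 of these 15 windows, belonging to 4 members, and in 8.30% of all 32851 windows. Both strands read the same for this motif. For each of these 4 members the window with the most matches, and among equals the one whose match lay farthest downstream, is shown from 170 bases before the start site to 30 after, 5′ to 3′ on the strand of the gene, with the matches in capitals.
*Cish*, chr9:107296489-107296688, plus strand: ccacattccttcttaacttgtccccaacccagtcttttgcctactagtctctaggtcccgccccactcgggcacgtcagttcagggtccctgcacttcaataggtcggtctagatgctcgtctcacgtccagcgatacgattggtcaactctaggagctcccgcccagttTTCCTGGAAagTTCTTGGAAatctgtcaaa
*Socs3*, chr11:117969337-117969536, minus strand: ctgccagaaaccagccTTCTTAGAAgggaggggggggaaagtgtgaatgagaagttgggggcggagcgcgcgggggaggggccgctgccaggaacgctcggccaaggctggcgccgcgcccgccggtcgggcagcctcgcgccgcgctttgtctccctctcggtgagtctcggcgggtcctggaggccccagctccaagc
*Igfals*, chr17:24878061-24878260, plus strand: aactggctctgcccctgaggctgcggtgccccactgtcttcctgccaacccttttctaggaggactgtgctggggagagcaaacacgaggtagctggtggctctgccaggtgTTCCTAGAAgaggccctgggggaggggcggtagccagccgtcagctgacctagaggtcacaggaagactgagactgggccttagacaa
*Bcl6*, chr16:23981254-23981453, minus strand: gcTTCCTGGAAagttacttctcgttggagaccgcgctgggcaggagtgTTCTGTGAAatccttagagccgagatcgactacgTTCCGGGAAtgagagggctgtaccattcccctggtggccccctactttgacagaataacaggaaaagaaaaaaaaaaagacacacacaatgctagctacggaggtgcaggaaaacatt

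The *Bcl6* window held 3 matches and the *Cish* window 2, the latter side by side at the RefSeq start site. Of all windows, 0.457% held at least 2 matches and 0.0335% at least 3. A second *Bcl6* window and a second *Igfals* window held 1 match each and are not printed. The consensus estrogen response element that ESR1 binds, with the arms GGTCA and TGACC and 3 bases between them, searched as an exact palindrome, was in 0 of the 15 windows of the members and in 0.0700% of all windows. A match of letters is a description of the sequence, and no binding was measured here.

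The libraries held between 27799061 and 78624766 counts. In CPM, the count of a gene scaled to the total of its library, *Esr1* itself stood at 74.7 to 88.2 in WT females, 25.04 to 52.0 in WT males and 8.22 to 19.7 CPM in the 9 ESR1KO mice; the deposited counts are per gene and do not separate the deleted exon from the rest. All 5 hepatocyte markers were present in every library, with summed levels from 67815 to 102631 CPM. Libraries FKO1 and FKO2 stood apart: their gene levels leaned towards AT-rich genes, with slopes of -0.494 and -0.279 log2 units per 10% of GC content against -0.0413 to 0.0892 in the other 13, and mitochondrial genes took 11.2% and 7.40% of their counts against 1.97% to 6.10%. Estimates on ESR1KO females that are named below are therefore mostly given with and without these 2 libraries, an alternative chosen after seeing the data.

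Exon length was taken over all annotated transcripts of a gene merged, so levels per kilobase depend on that annotation. Per kilobase of exon, over all 15 mice, *Ghr* (76.0 CPM per kb), *Igf1* (64.6) and *Igfals* (45.2) had the highest mean levels of the 10 genes. *Stat5b* (11.0 CPM per kb) stood far above its paralog *Stat5a* (1.81), and *Jak2* (6.52) lay between. The inhibitors *Socs3* (4.03), *Cish* (2.35) and *Socs2* (2.31) and the repressor *Bcl6* (3.82) were low. Even so, every value of a member in a mouse rested on at least 139 counts.

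**Figure D1:**
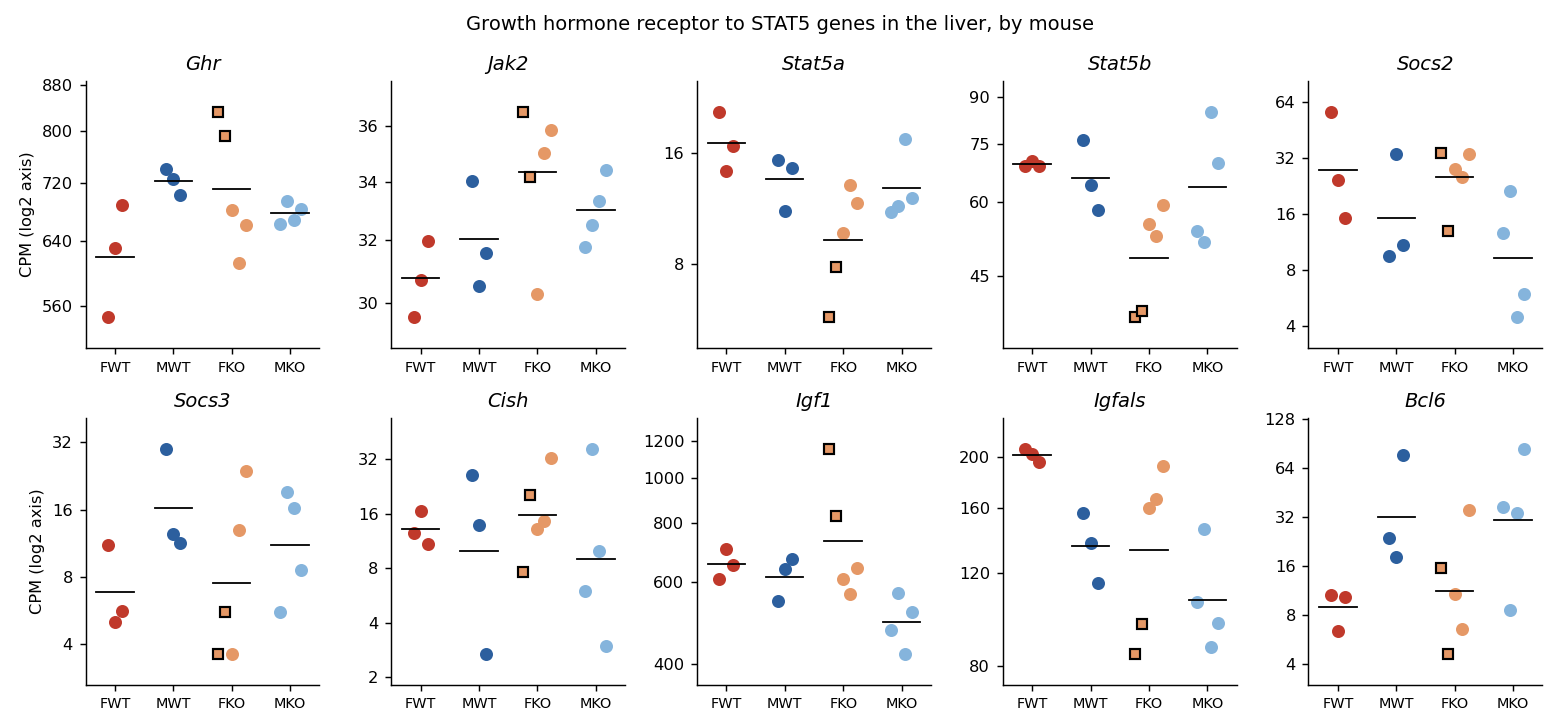
Level of each of the 10 genes in every mouse, as CPM on a log2 axis whose range differs between panels, with groups on the horizontal axis; a horizontal line is the group mean of log2 CPM, and squares with black edges are libraries FKO1 and FKO2. *Igfals* was at 195 to 207 CPM in the 3 WT females and below that range in the other 12 mice, while *Bcl6*, *Cish*, *Socs2* and *Socs3* scattered widely within groups.

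Sex differences were first compared in wild types. By edgeR's quasi-likelihood test with Benjamini-Hochberg adjustment over all 17655 genes, 0 of the 10 members differed between WT females and WT males at an adjusted p under 0.05, a threshold passed by 4.87% of all genes. DESeq2 also called 0, where it called 1187 of the 33253 genes it was given. At an unadjusted p under 0.05 there were 2 members, *Igfals* and *Bcl6*, against 17.3% of all genes. In 4 members, *Ghr*, *Socs3*, *Igfals* and *Bcl6*, no mouse of one sex lay within the range of the other, which was so for 30.1% of all genes.

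*Bcl6*, the repressor, had the largest fitted sex difference of the 10 in wild types. It stood at 10.7, 6.34 and 10.4 CPM in the 3 WT females and at 24.01, 18.1 and 77.1 CPM in the 3 WT males. The groups did not overlap, and the highest male, MWT3, stood far above the other 2. The fitted level was 4.36 times as high in males (female minus male log2 fold change -2.12, SE 0.76, adjusted p = 0.145 by edgeR). Without MWT3 the log2 fold change was -1.20 (adjusted p = 0.464), and with no filter on low counts *Bcl6* passed (-2.17, adjusted p = 0.0143). Among ESR1KO mice *Bcl6* was at 15.7, 4.61, 10.8, 6.55 and 35.4 CPM in females and at 37.3, 8.56, 33.9 and 84.8 CPM in males. These ranges overlapped, since MKO2 lay among the females and FKO5 among the males (log2 fold change -1.48, SE 0.60, adjusted p = 0.226). Without FKO1 and FKO2 the log2 fold change was -1.21 (adjusted p = 0.521). In each of the 4 groups the mouse highest in *Bcl6* (FWT1, MWT3, FKO5 and MKO4) also had the largest library of its group, with 56177913, 62050815, 65665473 and 78624766 counts; the part of library size in these levels was not tested.

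*Igfals* encodes the acid-labile subunit that holds IGF1 in a long-lived complex in the blood. It was at 207, 202 and 195 CPM in WT females and at 156, 137 and 115 CPM in WT males. Every WT female was above every WT male, and the female group was tight (SD 6.0 CPM, n = 3). The fitted difference was 1.48-fold (log2 fold change 0.57, SE 0.26, adjusted p = 0.269). Where FKO1 and FKO2 were left out of the fit, which pools the spread over the 4 groups, the same log2 fold change of 0.57 had an adjusted p of 0.0477, and with only the wild types in the fit it had an adjusted p of 0.0204. Summed hepatocyte markers were also lower in WT males (67815 to 69151 CPM) than in WT females (92146 to 102631 CPM), of which only *Alb* passed the test (log2 fold change 0.66, adjusted p = 0.0382, lost when any of 11 mice was left out), while the median of the 5 had the other sign, at -0.35. Their part in the *Igfals* difference was not tested. Fewer cells of a type and less RNA per cell cannot be told apart in bulk liver.

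*Socs3* was at 11.1, 5.05 and 5.61 CPM in WT females and at 29.96, 12.4 and 11.3 CPM in WT males. The lowest male and the highest female were nearly level (log2 fold change -1.29, SE 0.65, adjusted p = 0.322), and without MWT1 the estimate was -0.70 (adjusted p = 0.777). The acute phase genes *Saa1* and *Saa2*, serum amyloid genes induced by inflammatory cytokines, were lower in WT females, by log2 fold changes of -2.78 (adjusted p = 0.00216) and -2.40 (adjusted p = 0.0228). The *Saa2* call was lost without FWT1, FWT2, FWT3 or MWT3, and the estimate without MWT3 was -0.98. The other 8 of 10 acute phase genes did not pass. Of the 10, 7 had an unadjusted p under 0.05 by edgeR, against 17.3% of all genes. Their median log2 fold change was -0.39, beside 0.01 for all genes. The summed level of the list was 12058 to 13169 CPM in WT females against 13256 to 19331 CPM in WT males. The part of the acute phase genes in the *Socs3* values was not tested.

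The receptor *Ghr* was at 547, 631 and 689 CPM in WT females and at 741, 725 and 702 CPM in WT males. All males were above all females, by a small margin (log2 fold change -0.22, SE 0.13, adjusted p = 0.438). *Socs2*, a STAT5 target, was at 56.9, 24.4 and 15.4 CPM in WT females and at 9.56, 33.9 and 11.0 CPM in WT males. MWT2 lay above 2 of the 3 females, and the difference did not pass (log2 fold change 0.84, SE 0.58, adjusted p = 0.512). With 1 mouse left out, the *Socs2* estimate ran from 0.14 (without FWT1) to 1.65 (without MWT2). *Igf1*, *Jak2*, *Stat5a*, *Stat5b* and *Cish* overlapped between WT females and WT males, with adjusted p from 0.544 to 0.972.

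**Figure D2:**
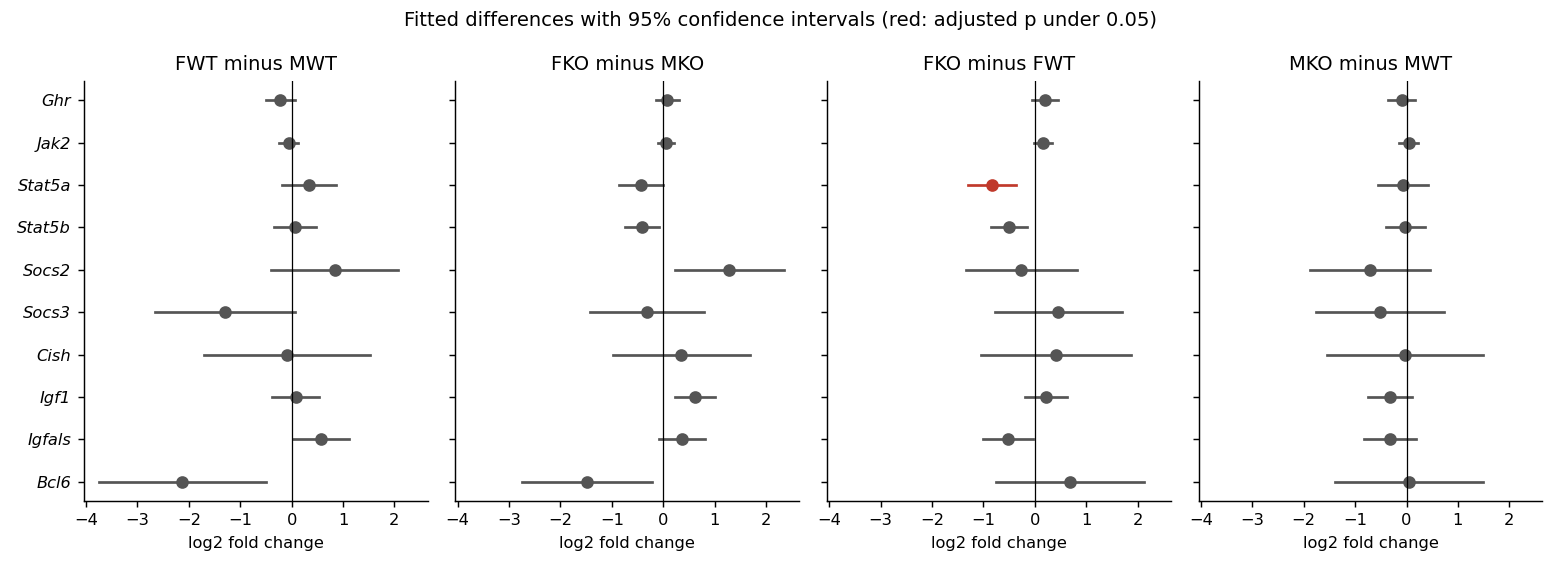
Log2 fold change (horizontal axis) of each gene (vertical axis) in 4 comparisons, as the edgeR estimate with its 95% confidence interval over 15 mice; red marks an adjusted p under 0.05. *Stat5a* in FKO minus FWT, at -0.84, is the only red point, and the intervals of *Socs2*, *Socs3*, *Cish* and *Bcl6* are several times as wide as those of *Ghr* and *Jak2*.

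Among ESR1KO mice the sexes were compared in the same way. No member passed between ESR1KO females and ESR1KO males by edgeR (0 of 10), against 0.272% of all genes, and in 0 members were the sexes without overlap, against 5.22%. Unadjusted p was under 0.05 for 4 members, *Stat5b*, *Socs2*, *Igf1* and *Bcl6*, against 17.5% of all genes. DESeq2 called 1, *Igf1* (adjusted p = 0.0331), where it called 431 of the 33253 genes it was given.

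*Igf1*, the circulating growth factor made by the liver in response to growth hormone, was at 1154, 830, 607, 565 and 643 CPM in ESR1KO females and at 474, 567, 421 and 517 CPM in ESR1KO males. The 2 highest values were those of FKO1 and FKO2, and the 3 other females lay between 565 and 643 CPM, with the lowest just under the highest male. The log2 fold change was 0.62 (SE 0.18, adjusted p = 0.131 by edgeR) with all mice, 0.29 (SE 0.11, adjusted p = 0.310) without FKO1 and FKO2, and 0.47 (SE 0.13, adjusted p = 0.0970) after a correction for GC content in each library. In wild types *Igf1* was at 608, 705 and 652 CPM in females and 545, 637 and 670 CPM in males, a log2 fold change of 0.08 (SE 0.22).

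*Socs2* was at 34.3, 13.02, 28.0, 25.5 and 33.7 CPM in ESR1KO females and at 12.8, 21.4, 4.48 and 5.98 CPM in ESR1KO males. Only FKO2 among the females lay within the range of the males (log2 fold change 1.29, SE 0.50, adjusted p = 0.211). The value without FKO1 and FKO2 was 1.40 (SE 0.56, adjusted p = 0.347). *Stat5b* was lower in ESR1KO females, by a log2 fold change of -0.41 (SE 0.16, adjusted p = 0.210), and by -0.22 (adjusted p = 0.583) without the 2 libraries. *Stat5a* differed by -0.43 (adjusted p = 0.290), and by -0.18 (adjusted p = 0.735) without them. For *Ghr*, *Jak2*, *Socs3*, *Cish* and *Igfals* the adjusted p lay between 0.387 and 0.791. The *Igfals* estimate went from 0.36 to 0.67 without FKO1 and FKO2 (SE 0.15, adjusted p = 0.126), and the adjusted p of the other 4 then lay between 0.816 and 0.955. The sign of the *Ghr* and *Socs3* estimates turned without FKO1 and FKO2, and that of *Ghr* and *Jak2* after the GC correction.

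Of the 4 comparisons of sex or genotype, the effect of the knockout in females was the only one in which a member passed by edgeR with all mice. *Stat5a* fell in ESR1KO females, 1 member of 10, where 5.71% of all genes passed. *Stat5a*, *Stat5b* and *Igfals* had an unadjusted p under 0.05, against 22.5% of all genes. The same 3 members were without overlap between the genotypes, against 15.6%. WT females also serve in the comparison with WT males, so both comparisons share 3 mice.

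*Stat5a* encodes the less abundant STAT5 in liver. It was at 20.7, 14.3 and 16.8 CPM in WT females and at 5.75, 7.89, 9.75, 13.1 and 11.7 CPM in ESR1KO females. Every ESR1KO female was below every WT female, and FKO1 and FKO2 were the lowest of all. The level in ESR1KO females was 0.560 of that in WT females (log2 fold change -0.84, SE 0.22, 95% interval -1.30 to -0.37, adjusted p = 0.0357 by edgeR; DESeq2 adjusted p = 0.00768). Without FKO1 and FKO2 it was -0.58 (SE 0.19, adjusted p = 0.101), and after the GC correction -0.75 (SE 0.18, adjusted p = 0.0216). The call was also lost with only these 2 groups in the fit (adjusted p = 0.101), and when FWT1 (adjusted p = 0.160), FWT2 (0.0509), FWT3 (0.106) or FKO2 (0.0825) was left out. In males *Stat5a* was at 15.3, 11.1 and 14.6 CPM in WT and at 11.1, 11.5, 17.4 and 12.1 CPM in ESR1KO mice, which overlapped (log2 fold change -0.07, SE 0.23, adjusted p = 0.949). The difference between the knockout effects in females and in males, -0.77 (SE 0.32), did not pass (adjusted p = 0.293); without FKO1 and FKO2 it was -0.51 (adjusted p = 0.395). *Stat5a* (chr11:100859351-100885169) overlaps *Stat3* on the opposite strand and is nearly identical to *Stat5b* over parts of its coding sequence; whether the counting used strand is not given in the sources used here, so a share of its reads is uncertain.

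*Stat5b*, the main STAT5 of hepatocytes, was at 68.9, 70.2 and 68.8 CPM in WT females and at 38.3, 39.3, 55.1, 52.6 and 59.2 CPM in ESR1KO females. All ESR1KO females were below the WT females, again with FKO1 and FKO2 lowest. The log2 fold change was -0.50 (SE 0.17, adjusted p = 0.0923), and -0.32 (SE 0.16, adjusted p = 0.281) without the 2 libraries. It passed when FKO5 was left out (-0.58, adjusted p = 0.0482). In ESR1KO males it ran from 51.4 to 84.9 CPM and in WT males from 58.1 to 76.1 CPM, with a log2 fold change of -0.02 (SE 0.18).

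*Igfals* was at 84.3, 96.2, 160, 166 and 193 CPM in ESR1KO females, all under the lowest WT female at 195 CPM. FKO1 and FKO2 lay well below the other 3. The log2 fold change was -0.53 (SE 0.23, adjusted p = 0.182) with them and -0.22 (SE 0.16, adjusted p = 0.477) without them. *Igf1* differed by 0.21 (SE 0.19, adjusted p = 0.547) with them and by -0.12 (adjusted p = 0.618) without them, so that its sign rested on these libraries. *Ghr* was at 833, 793, 682, 612 and 661 CPM in ESR1KO females, and its difference from WT females was 0.20 (SE 0.12, adjusted p = 0.326) with all mice and 0.06 (adjusted p = 0.730) without FKO1 and FKO2. For *Jak2*, *Socs2*, *Socs3*, *Cish* and *Bcl6* the genotypes overlapped, with adjusted p from 0.257 to 0.801, and from 0.363 to 0.914 without FKO1 and FKO2.

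The effect of the knockout in males left all 10 members short of the threshold (0 called by edgeR and 0 by DESeq2). Of all genes 1.42% passed by edgeR, and 486 of 33253 by DESeq2. Unadjusted p was under 0.05 for 0 members, against 11.9% of all genes. The ranges did not overlap for 1 member, against 15.9%: *Ghr* was at 662, 694, 667 and 683 CPM in ESR1KO males, just under the 702 to 741 CPM of WT males (log2 fold change -0.10, SE 0.12, adjusted p = 0.838). *Igfals* was at 106, 146, 86.8 and 96.7 CPM in ESR1KO males, of which 3 lay under the lowest WT male at 115 CPM (log2 fold change -0.32, SE 0.24, adjusted p = 0.669). *Igf1* differed by the same -0.32 (SE 0.20, adjusted p = 0.595). Some intervals were wide: the 95% interval of the inhibitor *Cish* ran from -1.55 to 1.49 on the log2 scale and that of the repressor *Bcl6* from -1.39 to 1.48, so these mice could not narrow either change to within 1 log2 unit.

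Whether the knockout acted differently in the sexes was tested directly by an interaction term. It passed for 0 of 10 members (DESeq2 called 0), against 1.94% of all genes by edgeR and 583 of 33253 by DESeq2. At an unadjusted p under 0.05 there was 1 member, *Stat5a*, against 14.3%. For the other 9 members the adjusted p lay between 0.389 and 0.869.

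Each ESR1KO group was also set against the WT group of the other sex, a comparison in which sex and genotype change together. Between ESR1KO females and WT males 0 of 10 members passed by edgeR or by DESeq2. Of all genes 2.61% passed by edgeR, and 853 of 33253 by DESeq2. At an unadjusted p under 0.05 by edgeR there were 3 members, against 3079 of all 17655 genes. Without FKO1 and FKO2 the log2 fold changes of these members went from -0.50 to -0.25 for *Stat5a*, from -0.43 to -0.25 for *Stat5b* and from -1.44 to -1.17 for *Bcl6*. Between ESR1KO males and WT females 1 of 10 passed, against 7.41% of all genes. This was *Igfals*, at 86.8 to 146 CPM in ESR1KO males and 195 to 207 CPM in WT females, a level of 0.539 of the WT female one (log2 fold change -0.89, SE 0.24, 95% interval -1.40 to -0.38, adjusted p = 0.0327). The call was lost when any one of FWT1, FWT2, FWT3, MKO1, MKO3 and MKO4 was left out (adjusted p from 0.0821 to 0.0964, log2 fold change -0.91 to -0.80). *Bcl6* (log2 fold change 2.17, SE 0.74) and *Socs2* (-1.55, SE 0.55) did not pass, but did when MKO2 was left out, at 2.51 (adjusted p = 0.0419) and -2.10 (adjusted p = 0.0392).

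The groups were also put in order of their mean CPM, with FKO1 and FKO2 included. *Igfals* ran from WT females (202 CPM, SD 6.0) through ESR1KO females (140 CPM, SD 47.02) and WT males (136 CPM, SD 20.5) to ESR1KO males (109 CPM, SD 25.9). *Stat5a* ran from WT females (17.3 CPM, SD 3.23) through WT males (13.7, SD 2.23) and ESR1KO males (13.03, SD 2.97) to ESR1KO females (9.65, SD 2.94). *Bcl6* ran from ESR1KO males (41.1 CPM, SD 31.8) through WT males (39.7, SD 32.5) and ESR1KO females (14.6, SD 12.4) to WT females (9.14, SD 2.42). Without FKO1 and FKO2 the ESR1KO female mean was 173 CPM (SD 17.4) for *Igfals*, 11.5 (SD 1.70) for *Stat5a* and 17.6 (SD 15.6) for *Bcl6*. The closeness of *Igfals* in ESR1KO females to WT males thus rested on these libraries. In none of the 10 genes did neighbouring groups in this order differ at an adjusted p under 0.05.

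The members differed most in how much mice of one group differed among themselves. The within-group SD of log2 CPM was 1.17 for *Cish*, 1.11 for *Bcl6*, 0.94 for *Socs3* and 0.87 for *Socs2*. Among the 8488 genes whose mean log2 CPM was 3 or more, with a median SD of 0.17, these 4 genes stood at the 99.9, 99.9, 99.7 and 99.6 percentiles. The kinase gene *Jak2*, at an SD of 0.08 (percentile 3.93), and the receptor gene *Ghr*, at 0.13 (percentile 28.0), were steady. *Igfals* (percentile 95.04), *Stat5a* (94.4), *Igf1* (87.4) and *Stat5b* (83.9) lay between. Without FKO1 and FKO2 the 4 variable genes stayed at SDs of 0.89 to 1.24, while the SD of *Igf1* went from 0.28 to 0.14 (percentile 63.4). From the lowest to the highest of the 15 mice the level rose 18.4-fold for *Bcl6*, 13.6-fold for *Cish*, 12.7-fold for *Socs2* and 8.27-fold for *Socs3*, but 1.24-fold for *Jak2* and 1.52-fold for *Ghr*. Of the 4 members with the STAT motif in a promoter window, *Cish*, *Socs3* and *Bcl6* were among these variable genes and *Igfals* was not.

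**Figure D3:**
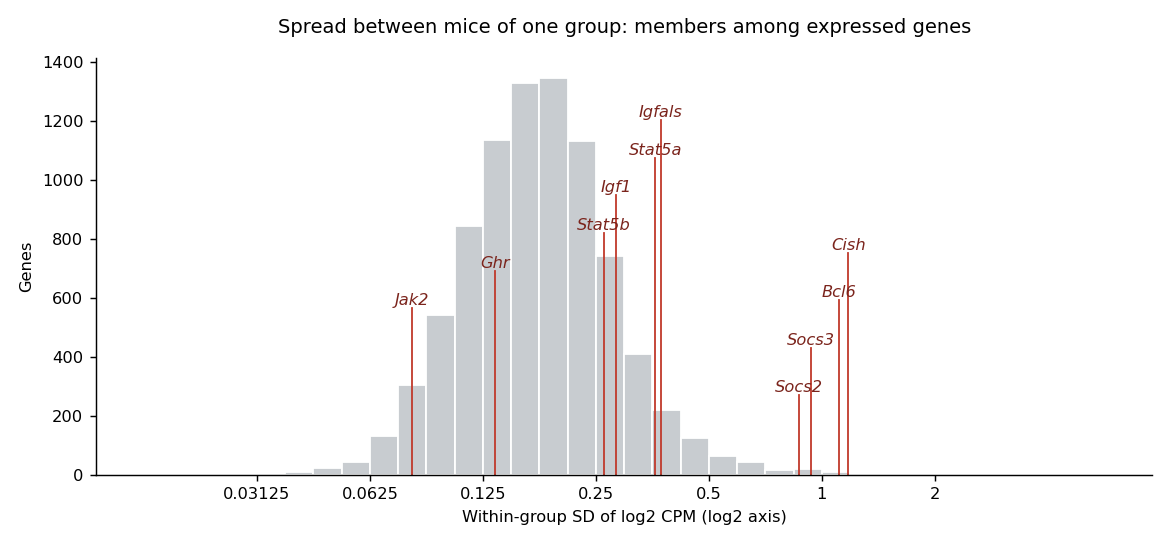
Number of genes (vertical axis) by the within-group SD of log2 CPM (horizontal axis, log2 scaled) for the 8488 genes whose mean log2 CPM was 3 or more; red lines mark the 10 members, and the heights of the lines only separate the names. *Jak2* and *Ghr* lie below the median of 0.17, and *Socs2*, *Socs3*, *Bcl6* and *Cish*, at 0.87 to 1.17, lie at its right edge.

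*Cish* shows this spread in single mice. It was at 26.2, 13.9 and 2.70 CPM in WT males and at 6.0, 36.7, 9.93 and 2.99 CPM in ESR1KO males. The females were at 12.5, 16.6 and 10.8 CPM with WT genotype and at 7.64, 20.3, 13.1, 14.6 and 32.5 CPM without ESR1. MWT3 and MKO4, the lowest in *Cish*, were the highest in *Bcl6* of their groups, and MKO2, the highest in *Cish*, was the lowest of its group in *Bcl6*. FKO5 was high in both. *Cish* overlaps 2 antisense genes and *Bcl6* and *Igf1* overlap 1 each, so that reads from these partners cannot be told apart where strand was not used in counting.

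Covariation of the members was then measured across the 15 mice, as the correlation of deviations of log2 CPM from the group mean, with 2-sided permutation tests that shuffled mice within groups. Of the 45 pairs, 0 passed after Benjamini-Hochberg adjustment and 8 had an unadjusted p of r under 0.05. *Stat5a* against *Igf1* was the strongest, with r = -0.87 (permutation p = 0.00135, adjusted p = 0.0607) and rho = -0.77 (permutation p = 0.00733, adjusted p = 0.192). Leaving out FKO1 and FKO4, the mice farthest from the median of *Stat5a*, gave r = -0.72. Leaving out FKO1 and FKO2 gave -0.67 (adjusted permutation p = 0.465), and the GC correction gave -0.77 (adjusted permutation p = 0.186). The rank correlation within a group was -1 and -0.5 in the WT females and males, and -0.9 and -0.4 in the ESR1KO females and males. In these 15 mice more *Igf1* RNA than the group mean tended to go with less *Stat5a* RNA, though the pair did not pass after adjustment. FKO1 and FKO2, the libraries with the steepest GC slopes, had the most *Igf1* and the least *Stat5a* of their group. The part of GC content in the rest of the relation was not tested. *Stat5a* has an exon GC content of 56.4% and *Igf1* of 43.6%.

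*Ghr* against *Igf1* gave r = 0.76 (permutation p = 0.00732, adjusted p = 0.0854) and rho = 0.72 (permutation p = 0.0195, adjusted p = 0.219), and r fell to 0.30 without FKO1 and FKO2, to 0.42 after the GC correction and to 0.52 without FKO1 and FKO4. *Stat5a* against *Stat5b* gave r = 0.74 (permutation p = 0.00966, adjusted p = 0.0869) and rho = 0.70 (permutation p = 0.0168, adjusted p = 0.219), with r = 0.55 without FKO1 and FKO2 and 0.71 without FKO1 and FKO4. *Socs3* and *Cish*, inhibitors of one family, rose and fell together less tightly, with r = 0.62 (permutation p = 0.0184, adjusted p = 0.138), rho = 0.60 (permutation p = 0.0361, adjusted p = 0.259), and r = 0.61 without FKO1 and FKO2 or 0.48 without FKO5 and MWT1. *Cish* against *Bcl6* gave r = -0.62 (permutation p = 0.0565, adjusted p = 0.283) and rho = -0.61 (permutation p = 0.0477, adjusted p = 0.259). Without MKO2 and MWT3, the mice farthest from the median of *Cish*, r was -0.07, so the relation rested on those mice; leaving out FKO5 alone gave r = -0.93. *Socs2* and *Cish*, both direct targets of STAT5, had an r of 0.29 (permutation p = 0.424, adjusted p = 0.673) and a rho of 0.16 (permutation p = 0.632, adjusted p = 0.813), and r was -0.14 without MKO2 and MWT2. The remaining pairs at an unadjusted p of r under 0.05 were *Ghr* with *Stat5a* (r = -0.77, adjusted permutation p = 0.0854), *Stat5b* with *Igf1* (-0.75, 0.0854), *Stat5a* with *Socs3* (0.69, 0.141) and *Cish* with *Igfals* (0.58, 0.141). Without FKO1 and FKO2 their r was -0.47, -0.61, 0.61 and 0.82, in that order.

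**Figure D4:**
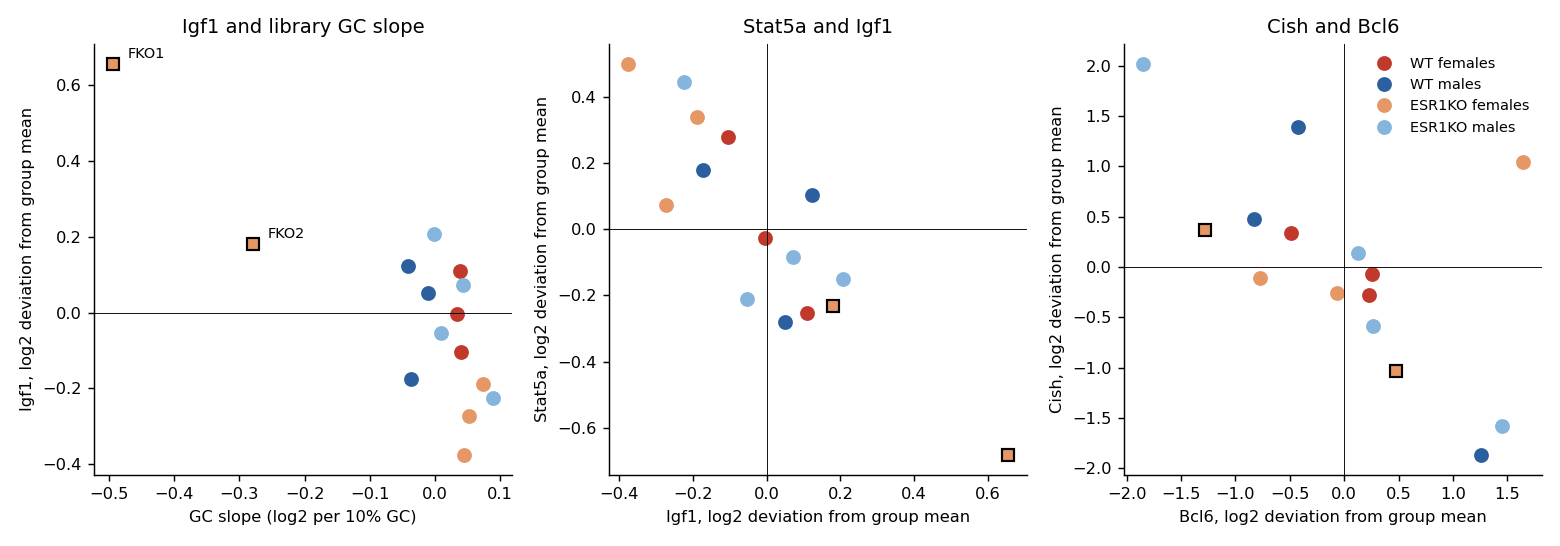
Deviations of log2 CPM from the group mean in each of the 15 mice: *Igf1* against the GC slope of the library (left), *Stat5a* against *Igf1* (middle) and *Cish* against *Bcl6* (right); colours are groups, and squares with black edges are FKO1 and FKO2. FKO1, at a slope of -0.494, lies highest in *Igf1* and lowest in *Stat5a*, and a single ESR1KO female, FKO5, is high in both *Cish* and *Bcl6*.

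For the 2 members that passed in any comparison, the tested genes with the most similar profile were sought, by the root mean square difference of centred log2 CPM over the 15 mice. Nearest to *Stat5a* were *Pcdh1* (0.18), *Lrrc8d* (0.19) and *Gm9895* (0.19), where the profile of *Stat5a* itself had a root mean square of 0.45. Nearest to *Igfals* were *F7*, the coagulation factor VII gene (0.22), *Fgfr4*, a receptor for fibroblast growth factors on hepatocytes (0.22), and *Pla1a* (0.23), where that of *Igfals* was 0.45.

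The rest of the pathway was read from a list of 40 other genes, of which 39 were tested (*Igf2* was not): JAK and STAT genes with related receptors, other negative regulators, adaptors and the IGF system. Between WT females and WT males 1 of 39 passed, against 4.87% of all genes: the prolactin receptor gene *Prlr*, which rose in females. Prolactin signals through JAK2 and STAT5 as growth hormone does. *Prlr* was at 364, 285 and 291 CPM in WT females and at 47.5, 48.5 and 89.1 CPM in WT males (log2 fold change 2.34, SE 0.27, adjusted p = 2.15e-05). No WT male came near a WT female. The median log2 fold change of the 39 genes was 0.14, beside 0.01 for all genes.

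In ESR1KO females 3 of 39 fell against WT females, *Prlr*, *Igfbp2* and *Igfbp5*, and 0 rose, against 5.71% of all genes called in either direction; the median was -0.19, beside -0.00 for all genes. *Prlr* was at 235, 148, 147, 118 and 180 CPM in ESR1KO females (log2 fold change -0.92, SE 0.22, adjusted p = 0.0253), between the WT sexes. *Igfbp2*, an IGF-binding protein of the circulation, was at 437, 327 and 262 CPM in WT females and at 111, 138, 206, 215 and 236 CPM in ESR1KO females (log2 fold change -0.91, SE 0.22, adjusted p = 0.0248), with FKO1 and FKO2 again lowest. *Igfbp5*, an IGF-binding protein of tissue matrix, was at 11.9, 10.7 and 16.1 CPM in WT females and at 6.12, 7.45, 8.73, 8.27 and 6.01 CPM in ESR1KO females (log2 fold change -0.82, SE 0.19, adjusted p = 0.0220). For *Igfbp2* and *Igfbp5* no ESR1KO female reached the lowest WT female. *Prlr* still passed without FKO1 and FKO2 (-1.08, adjusted p = 0.0206), while *Igfbp2* (-0.64, adjusted p = 0.0635) and *Igfbp5* (-0.76, adjusted p = 0.0792) did not. The call was also lost for *Prlr* without FWT1, FWT2, FWT3 or FKO2 (adjusted p from 0.0550 to 0.114), for *Igfbp2* without FWT1, FWT2 or FKO2 (0.0603 to 0.143) and for *Igfbp5* without FWT1 or FWT3 (0.0518 to 0.152).

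In ESR1KO males 0 of the 39 genes passed against WT males, with 2 at an unadjusted p under 0.05 against 11.9% of all genes, and between the ESR1KO sexes 0 passed, with 7 at an unadjusted p under 0.05 against 17.5%, both by edgeR. The medians were -0.04 and -0.01, beside -0.00 and 0.01 for all genes. The interaction passed for 1 of 39, against 1.94% of all genes. This was *Igfbp5* (-1.18, SE 0.29, adjusted p = 0.0424; without FKO1 and FKO2 -1.12, adjusted p = 0.0938), which was at 7.85, 10.7 and 5.34 CPM in WT males and at 11.6, 8.44, 10.5 and 10.4 CPM in ESR1KO males.

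Lists for other states of the liver were counted beside the members. Of 12 fasting and feeding genes 2 rose in ESR1KO males over WT males by edgeR, where 1.42% of all genes passed. They were *Pdk4* (log2 fold change 1.51, adjusted p = 0.0156), which spares glucose in fasting, and *Scd1* (1.89, adjusted p = 0.0396), a fatty acid desaturase that rises on feeding. Of the 12, 6 had an unadjusted p under 0.05, against 11.9% of all genes. In the same comparison 0 of 10 acute phase genes passed by edgeR, 8 had an unadjusted p under 0.05 against 11.9% of all genes, and their median was -0.47, with summed levels of 11268 to 12255 CPM in ESR1KO and 13256 to 19331 CPM in WT males. Of 13 clock genes 1 fell in ESR1KO females against WT females, where 5.71% of all genes passed. It was *Per3* (-0.59, adjusted p = 0.0126, and without FKO1 and FKO2 -0.53, adjusted p = 0.0465). Among markers of other liver cells, 1 of 6 Kupffer cell markers passed between the ESR1KO sexes, against 0.272% of all genes. It was *Vsig4*, higher in ESR1KO females than in ESR1KO males (0.61, adjusted p = 0.0210, and without FKO1 and FKO2 0.57, adjusted p = 0.0385). There 5 of the 6 had an unadjusted p under 0.05, against 17.5% of all genes, their median was 0.46, and their summed level was 346 to 447 CPM in females and 271 to 352 CPM in males. Of 5 cholangiocyte markers, *Epcam* (1.08, adjusted p = 0.00657) was higher and *Sox9* (-1.03, adjusted p = 0.0384) lower in WT females than in WT males. *Spp1* (0.60, adjusted p = 0.0272) was higher in ESR1KO than in WT females, with an adjusted p of 0.0579 without FKO1 and FKO2. *Krt19* (1.23, adjusted p = 0.0307) and *Epcam* (0.95, adjusted p = 0.0300) were higher in ESR1KO than in WT males. In these comparisons, in that order, 4.87%, 5.71% and 1.42% of all genes passed. The summed level of these 5 markers was 32.4 to 32.9 CPM in WT and 43.7 to 51.4 CPM in ESR1KO females, and 34.0 to 55.6 CPM in WT and 41.3 to 59.3 CPM in ESR1KO males. Most of this sum was *Spp1*, at 28.5 to 29.3 CPM in WT and 39.7 to 47.04 CPM in ESR1KO females. In males *Spp1* was at 30.4 to 51.2 CPM in WT and 36.6 to 53.8 CPM in ESR1KO mice. *Epcam*, *Sox9* and *Krt19* lay between 0.396 and 2.66 CPM in all 15 mice. The mean of *Epcam* was lower in ESR1KO females (1.21 CPM) than in WT females (1.41 CPM). Those of *Sox9* (1.21 against 0.928 CPM) and *Krt19* (1.05 against 0.812 CPM) were higher. Endothelial, stellate and fibroblast, and lymphocyte and neutrophil markers had 0 of 5, 0 of 5 and 0 of 8 calls by edgeR in each of the 5 comparisons, with at most 1, 2 and 3 genes at an unadjusted p under 0.05. Leaving out 1 mouse ended most of these calls: *Pdk4* without MWT1, MWT3 or MKO3, *Scd1* without FWT3, MWT1, MWT2, MWT3, MKO1, MKO3 or MKO4, *Per3* without FWT2 or FWT3, *Vsig4* without MKO1, MKO2 or MKO3, and *Spp1* without any one WT female. *Sox9* was lost without any one WT female or MWT3 (-0.67 without MWT3), *Krt19* without any one WT male or MKO1, MKO2 or MKO3, and *Epcam* in males without any one WT male or MKO3 or MKO4, while *Epcam* in wild types held in all 15 fits. The part of these cell types and states in the members' values was not tested.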

How the data were processed

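The deposited table held raw counts per gene for 15 liver libraries. Per the paper's methods and the labels, the authors trimmed reads (Trimmomatic 0.36 in the submitters' processing notes), used STAR for alignment to GRCm38, and made gene counts with HTSeq (0.6.0 in those notes); the annotation release and strand setting are not given in the sources used here. Groups and numbers came from the sample labels, and no 2 replicates agreed within counting noise. Genes were filtered by filterByExpr, scaled by TMM and fitted by edgeR 4.0.16 (quasi-likelihood, R 4.3.3) with 4 group means, with Benjamini-Hochberg adjustment over 17655 genes. Fold changes are log2, and intervals cover 95%. CPM used TMM-scaled totals. log2 CPM used a prior count of 2. On simulated counts for 17655 genes, 195 to 200 of 200 genes changed 4-fold were recovered in each of the 7 comparisons, and 6 to 13 unchanged genes were called. Changes of less than 4-fold, the size of most member estimates, were not simulated. GC content and positions came from GENCODE on GRCm38, and promoters from RefSeq. The members and lists were chosen with earlier results of these data known. All 10 members were named, genes of other lists only where they passed, and the 3 nearest profiles for members that passed. Alternatives included DESeq2 1.42.0. The labels give no batch, and separate mice are the replicates. Per the paper's methods, samples with low reads were sequenced again in a top-up run. Which libraries these were is not given in the sources used here, so the part of that run in the values was not tested.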

Additional observations from a re-analysis of the deposited data

Results flagged for a closer look

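The knockout effect on *Igfbp5* differed between the sexes by the interaction term of edgeR, at -1.18 on the log2 scale (adjusted p = 0.0424): it fell in females and its estimate was above WT in males. The call was lost without FKO1 and FKO2 (-1.12, adjusted p = 0.0938) and without any one of 10 single mice. The effect on *Epcam*, a cholangiocyte marker, differed likewise, at -1.17 (SE 0.28, adjusted p = 0.0390), at levels of 1.24 to 1.54 CPM in WT females, 0.593 to 0.733 CPM in WT males, 0.993 to 1.57 CPM in ESR1KO females and 1.05 to 1.58 CPM in ESR1KO males. This call was lost without FKO1 and FKO2 (-1.12, adjusted p = 0.0619) and without any one of 12 single mice. Dixon's test for outliers was run for each of the 10 members in ESR1KO females and in ESR1KO males. It marked no mouse in these 20 sets of 4 or 5 values. The WT groups, with 3 mice each, were not tested.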

How the results depend on the processing

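Counts of members called did not move with DESeq2 size factors, with library totals in place of TMM, with a filter of 1 CPM in 3 libraries or with the GC correction. In FWT minus MWT the count was 0, and became 1 without a filter, 1 with the replicate block, 1 with only the groups compared, 1 without FKO1 and FKO2, and 2 at an unadjusted p. Over all genes, 860 of 17655 became 968 of 33253, 796 of 17655, 1261 of 16712, 1574 of 17504 and 3060 of 17655, in that order. In FKO minus MKO the count of members was 0, and became 1 without a filter, 1 by DESeq2 and 4 at an unadjusted p. Over all genes, 48 of 17655 became 313 of 33253, 431 of 33253 and 3092 of 17655. In FKO minus FWT the count of members was 1, and became 2 with the replicate block and 3 at an unadjusted p. It became 0 with a log2 fold change of at least 1.5, with only the groups compared or without FKO1 and FKO2. Over all genes, 1008 of 17655 became 1383, 3973 and 212 of 17655, 457 of 17168 and 782 of 17504, in that order. In the interaction the count of members was 0, and 1 at an unadjusted p, where the count over all 17655 genes went from 343 to 2520. In FKO minus MWT 0 members were called, then 1 with the replicate block and 3 at an unadjusted p. Over all 17655 genes, 461 became 560 and 3079. In MKO minus FWT 1 member was called, then 0 with the fold limit, 3 at an unadjusted p and 3 without a filter. There were 3 with only the groups compared and 2 without FKO1 and FKO2. Over all genes, 1309 of 17655 became 307 and 3927 of 17655, 1368 of 33253, 2613 of 16978 and 2459 of 17504, in that order. Leaving out each mouse gave 0 to 2 members in FKO minus FWT and 0 to 3 members in MKO minus FWT. The 5 other comparisons stayed at 0 members. The count of pairs that covaried was 0, and 0 to 2 with a mouse left out.

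Same-numbered mice did not deviate together (r -0.27 to 0.19 over 19 pairs, 3 above 0.1), so the replicate block is only an alternative. With it *Bcl6* passed in FWT minus MWT (-1.96, adjusted p = 0.0460) and in FKO minus MWT (-2.17, adjusted p = 0.0270), and *Stat5b* beside *Stat5a* in FKO minus FWT (-0.65, adjusted p = 0.0360). It turned the estimates of *Cish* in FWT minus MWT to 0.0029, of *Socs3* and *Bcl6* in FKO minus FWT to -0.40 and -0.21, and of *Bcl6* in MKO minus MWT to -0.33. Without FKO1 and FKO2 the estimates of *Ghr* and *Socs3* in FKO minus MKO turned to -0.056 and 0.12 and that of *Igf1* in FKO minus FWT to -0.12; the GC correction turned *Ghr* and *Jak2* in FKO minus MKO to -0.016 and -0.042. The cause of these turns was not tested. With a mouse left out the estimate spanned zero for *Stat5b* (-0.015 to 0.18) and *Cish* (-0.59 to 0.70) in FWT minus MWT, for *Socs2* (-0.60 to 0.44) and *Socs3* (-0.17 to 0.91) in FKO minus FWT, and in MKO minus MWT for *Stat5a* (-0.24 to 0.020), *Stat5b* (-0.18 to 0.090), *Socs2* (-1.26 to 0.10), *Socs3* (-0.80 to 0.074), *Cish* (-1.17 to 0.76) and *Bcl6* (-0.59 to 0.97). The lowest count behind a member's value was 139; what limited the calls was not tested. Calls over all genes, with a mouse left out and then over the other alternatives at the same threshold, were 860 (541 to 1096; 791 to 1574) in FWT minus MWT, 48 (26 to 109; 26 to 431) in FKO minus MKO, 1008 (413 to 1538; 457 to 1533) in FKO minus FWT, 250 (100 to 331; 165 to 486) in MKO minus MWT, 343 (242 to 393; 289 to 583) in the interaction, 461 (215 to 722; 242 to 853) in FKO minus MWT and 1309 (613 to 1805; 956 to 2613) in MKO minus FWT. The lowest counts came without MWT1, MKO3, FWT3, MWT3, FWT1, MWT1 and FWT3, in that order.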
